A study of Mus musculus with 2 samples.

Results

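Type 2 conventional dendritic cells (cDC2) and monocytes from the same mouse tumours were compared gene by gene, with each mouse serving as its own control. The members were the cells that the authors' deposited table names cDC2 or Monocytes and whose barcode held at least 1000 mouse-gene UMIs (unique molecular identifiers, each standing for 1 captured RNA molecule). This gave 200 cDC2 and 2486 monocytes, 2686 of the 8716 cells of all types that passed the same steps. The deposited table lists 468 cDC2 and 5611 monocytes, so most of its entries were not used here.

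CD45+ cells had been sorted from subcutaneous MC38 tumours (a colon carcinoma line of the mouse). The host mice had human Fc gamma receptors. Each mouse had received 2000000 tumour cells, and the treated mice 100 µg of an antibody to mouse GITR in 2 injections 3 days apart, with tumours taken 4 days after treatment. Hashtag antibodies mark the mice within 1 droplet library, which held 2 mice given N297A (described in the deposited table as agonist and Fc-null), 2 Untreated mice, 1 mouse given GA-aFuc (agonist, Fc enhanced) and 1 given GITR/Syn GA-aFuc (described as Fc enhanced and non-agonist). The control is named PBS in the description of the design, which gives 3 mice per treatment. With 1 mouse in each Fc-enhanced group, treatment and mouse cannot be told apart there. Values per mouse are given below in the order N297A 1, Untreated 1, GA-aFuc, N297A 2, GITR/Syn GA-aFuc and Untreated 2.

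Conventional dendritic cells take up antigen, display its peptides on MHC class II molecules and carry them to lymph nodes, where the cDC2 subset mainly engages CD4 T cells. They develop from bone marrow precursors under the growth factor receptor Flt3. Monocytes leave the blood through the chemokine receptor Ccr2, and in tumours they give rise to macrophages and can also gain MHC class II, so the 2 types share many surface proteins.

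UMIs were summed per mouse and type. The cDC2 sums came from 26 to 47 cells and held 293717 to 606544 UMIs, and the monocyte sums came from 324 to 562 cells and held 3435275 to 5609012 UMIs. A single cDC2 held more UMIs (median over cells 11137 ± 977, mean ± SD of 6 mice) than a monocyte (9385 ± 370). That order held in 6 of 6 mice (exact two-sided sign-flip test, p = 0.03125, the smallest that 6 pairs allow). With every cell thinned to 1000 UMIs the direction of gene number was the opposite, 635 genes per cDC2 and 670 per monocyte, and cDC2 were higher in 0 of 6 mice. Levels are given as CPM (the gene's UMIs scaled to a fixed total), a share of each type's RNA and not an amount per cell, and fitted differences are log2 values of cDC2 minus monocytes. The scaling factors placed those differences 0.106 above the log2 ratio of CPM on average (0.0833 to 0.151 over mice).

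The 3 defining markers differed between the types in the direction of the deposited names. Cd209a, a C-type lectin of cDC2, was at 109, 293, 18.4, 138, 78.4 and 88.9 CPM in cDC2 and at 0, 2.44, 0, 0.261, 0.288 and 1.96 CPM in monocytes. The lowest cDC2 value, in the GA-aFuc mouse, lay above every monocyte value of Cd209a (log2 difference 7.15, SE 0.33, adjusted p = 1.96e-14). Flt3, the receptor that drives dendritic cell development, was at 69.2, 17.0, 76.0, 60.2, 64.4 and 49.98 CPM in cDC2 and at 2.01, 2.44, 1.46, 2.09, 0.288 and 0.891 CPM in monocytes. The Flt3 groups again did not overlap (log2 difference 5.24, SE 0.35, adjusted p = 1.43e-12). Ly6c2, a surface protein of inflammatory monocytes, was at 584, 657, 382, 954, 485 and 122 CPM in cDC2 and at 2060, 1866, 1715, 2420, 2382 and 2848 CPM in monocytes. Ly6c2 was lower in cDC2 in all 6 mice (log2 difference -2.04, SE 0.41, adjusted p = 0.0132), with the lowest cDC2 value in the second Untreated mouse. CD8 T cells of the same library held Ly6c2 at 1790 CPM and macrophages at 61.7 CPM, so this gene does not by itself mark a monocyte. In cells thinned to 1000 UMIs, Cd209a was seen in 8% of cDC2 (21% unthinned), in 0.0805% of monocytes (0.322% unthinned) and in 0 of 907 CD8 T cells (0.221% unthinned).

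Marker lists of other cell types were summed in the same way. The summed level of 10 macrophage genes was 614 to 2425 CPM in cDC2, 10503 to 14075 CPM in monocytes, 21709 to 27866 CPM in macrophages and 695 to 1262 CPM in CD8 T cells. The summed T cell list was 6.91 to 30.6 CPM in cDC2, the NK cell list 17.0 to 44.4 CPM and the neutrophil list 0 to 21.1 CPM, with 7 of the 8 neutrophil genes at 0. The 8 cDC1 genes, all with UMIs in both types, summed to 426 to 760 CPM in cDC2 and 165 to 198 CPM in monocytes, and their part in the results was not tested. The 10 monocyte genes summed to 3301 to 4931 CPM in cDC2, against 5567 to 7657 CPM in monocytes, and of them Chil3 and Fcgr1 were at 0 in cDC2. Fcgr1 was seen in only 17 of 2486 monocytes (0.684%) and was too sparse to be tested, so its 0 does not separate the types. The same list summed to 2640 to 3351 CPM in CD8 T cells and 777 to 956 CPM in macrophages. The cDC2 range thus overlapped that of CD8 T cells, and this sum does not by itself mark monocytes. The sources used here do not say how the authors assigned the names. Where the names rest on these same transcriptomes, a p-value measures only how well a difference repeated over 6 mice.

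Of 9185 genes tested, 1617 were higher in cDC2 (17.6%) and 1568 lower (17.1%) at an adjusted p under 0.05, and the median log2 difference of all genes was 0.0017. In 752 genes (8.19%) all 6 cDC2 values lay above all 6 monocyte values, and in 1333 genes (14.5%) all lay below. The differences were often large: 170 called genes were at least 4-fold higher and 313 at least 4-fold lower. Against macrophages, which share the cDC2 sums with the first comparison, 1896 of 11270 genes were higher in cDC2 (16.8%) and 2082 lower (18.5%). All 22 gene lists used below are described by counts and medians, to be read against these shares.

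**Figure D1:**
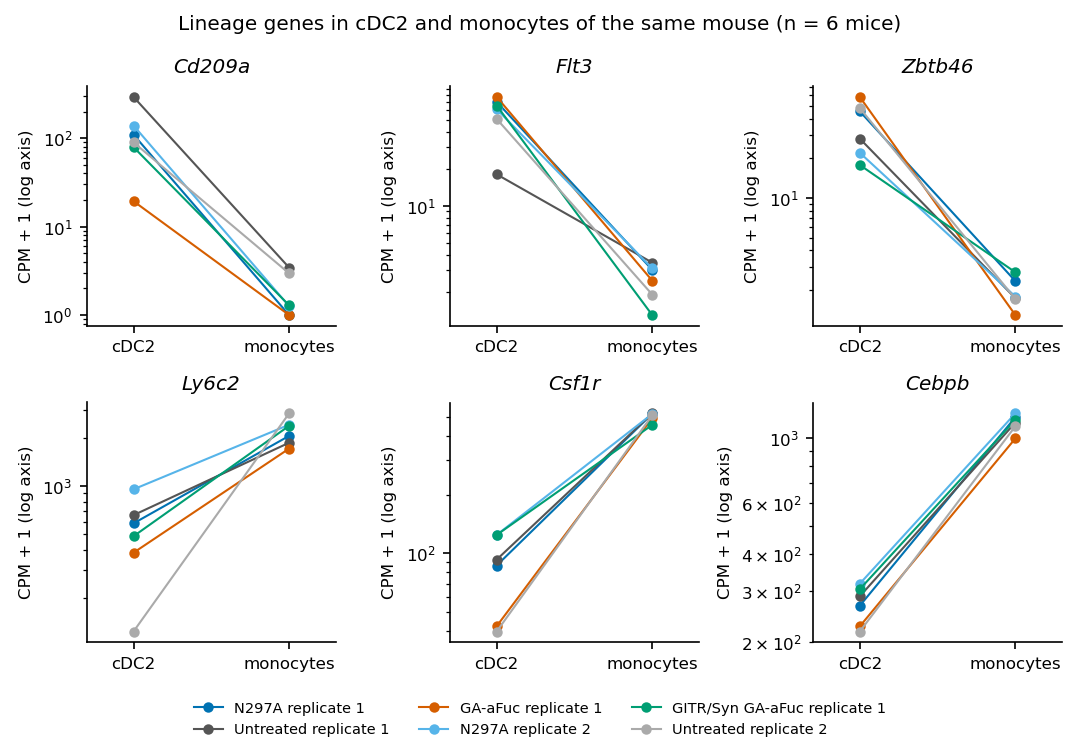
Levels of 6 lineage genes in cDC2 and monocytes of each mouse, as CPM plus 1 on log axes; each line joins the 2 types of 1 mouse. Cd209a, Flt3 and Zbtb46 are higher in cDC2 and Ly6c2, Csf1r and Cebpb higher in monocytes in all 6 mice.

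The regulators of the 2 lineages separated them. Zbtb46, a transcription factor of conventional dendritic cells, was at 44.5, 27.2, 57.5, 21.1, 16.8 and 47.2 CPM in cDC2 and between 0.291 and 1.73 CPM in monocytes (log2 difference 5.29, SE 0.39, adjusted p = 1.36e-11). Irf4, needed for cDC2 function, was at 29.7, 20.4, 82.9, 42.1, 81.2 and 63.9 CPM in cDC2 against 2.62 to 4.64 CPM (log2 difference 3.84, SE 0.30, adjusted p = 4.91e-11). Neither gene overlapped between the types in any mouse. Bcl11a, a lymphoid and dendritic cell transcription factor, averaged 35.9 CPM in cDC2 and 4.05 CPM in monocytes (log2 difference 3.28). Of 20 dendritic cell lineage genes, all tested, 9 were higher in cDC2, 3 lower and 8 did not pass, with a median of 0.22. The 3 lower ones were Irf8 (218 ± 42.3 against 345 ± 37.9 CPM, log2 difference -0.56), Klf4 (-0.46) and Nfil3 (-0.43). None of the 3 passed in the Untreated mice alone. Nfil3 also did not pass without the GA-aFuc mouse (adjusted p = 0.074), without cDC2 cluster 64 or with thinned cells. Irf8 also did not pass without cDC2 cluster 46 or with monocytes drawn down to the number of cDC2. It was at 284 CPM in cluster 36 and 168 CPM in cluster 46, against a monocyte cluster median of 304 CPM. Irf8 is best known as the factor of cDC1, the other conventional subset, and its level in pooled cDC1 was 1124 CPM. Spi1, which encodes the general myeloid factor PU.1, did not pass (461 ± 46.9 against 429 ± 20.4 CPM, log2 difference 0.21, adjusted p = 0.057), nor did Id2, Batf3 or Itgax.

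Monocyte regulators mostly went the other way. Csf1r, the receptor for the macrophage growth factor, was at 85.7, 91.9, 41.4, 123, 123 and 38.9 CPM in cDC2 and at 517, 519, 490, 516, 453 and 508 CPM in monocytes (log2 difference -2.51, SE 0.20, adjusted p = 4.21e-07). Csf1r was lowest in cDC2 of the GA-aFuc mouse and the second Untreated mouse. The transcription factor Maf was lower (4.16 ± 3.90 against 121 ± 35.4 CPM, log2 difference -4.89), and Cebpb fell by 1.97 on the log2 scale (269 ± 40.6 against 1125 ± 75.8 CPM). Of 20 monocyte lineage genes, 19 were tested, 14 were lower in cDC2, 2 higher and 3 did not pass (median -1.89). The 2 higher ones were Csf2rb, the shared signalling chain of the GM-CSF receptor (495 ± 66.8 against 291 ± 21.9 CPM, log2 difference 0.87), and Runx1 (0.55). Nr4a1, a factor of patrolling monocytes, did not pass (265 ± 24.3 against 276 ± 41.2 CPM).

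Class II genes carry short promoter elements that bind a shared protein complex and the coactivator Ciita, and 2 of their cores were searched for here: GATTGG, the core of the Y box, and AGNAAC, the core of the X box. Shown are the 150 bases before the start site for 6 class II genes whose levels are described next, from RefSeq on GRCm38.p6, gene strand, 5′ to 3′. This build is older than that of the counts. Capitals mark GATTGG and, where it begins 30 to 33 bases upstream of it, AGNAAC.
H2-Aa (chr17:34287824-34287973, minus strand): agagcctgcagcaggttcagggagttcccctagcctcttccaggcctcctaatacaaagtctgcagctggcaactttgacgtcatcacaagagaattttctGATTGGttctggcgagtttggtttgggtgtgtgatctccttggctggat
H2-Eb1 (chr17:34305717-34305866, plus strand): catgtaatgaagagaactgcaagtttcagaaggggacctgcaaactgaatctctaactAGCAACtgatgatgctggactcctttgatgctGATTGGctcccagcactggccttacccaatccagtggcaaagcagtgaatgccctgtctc
H2-Oa (chr17:34092229-34092378, plus strand): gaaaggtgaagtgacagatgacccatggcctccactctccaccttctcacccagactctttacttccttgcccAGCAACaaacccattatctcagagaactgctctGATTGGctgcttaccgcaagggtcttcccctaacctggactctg
H2-Ob (chr17:34238755-34238904, plus strand): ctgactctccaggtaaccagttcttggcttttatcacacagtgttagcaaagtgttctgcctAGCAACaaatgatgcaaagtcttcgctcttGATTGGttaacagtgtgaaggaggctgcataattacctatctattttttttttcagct
H2-DMb1 (chr17:34153041-34153190, plus strand): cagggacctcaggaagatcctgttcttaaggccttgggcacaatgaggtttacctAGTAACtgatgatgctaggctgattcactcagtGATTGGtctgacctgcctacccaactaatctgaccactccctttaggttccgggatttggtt
H2-DMb2 (chr17:34145099-34145248, plus strand): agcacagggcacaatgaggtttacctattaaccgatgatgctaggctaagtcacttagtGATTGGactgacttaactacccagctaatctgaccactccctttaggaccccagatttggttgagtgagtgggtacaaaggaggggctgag

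GATTGG began 49 bases before the start of H2-Aa, 60 before H2-Eb1, 44 before H2-Oa, 58 before H2-Ob, 62 before H2-DMb1 and 91 before H2-DMb2. Of all 32851 RefSeq promoters of 300 bases (250 before to 50 after a start), 8.71% held GATTGG on the gene strand and 16.1% on either strand, and 28.8% held AGNAAC on the gene strand. The pair in that order and spacing was in 13 promoters (0.0396%) on the gene strand and in 25 (0.0761%) on either strand. Among the 18 class II list members 14 had at least 1 promoter in this set, and H2-Ab1, Cd74, Ciita and Rfxap had none. Of the 18 promoters of those 14 genes, 10 (55.6%) held GATTGG on the gene strand and 5 (27.8%) the pair. Counted by gene, 8 of the 8 H2 genes among them held GATTGG in at least 1 promoter and 5 the pair. The spacing was chosen after these promoters had been seen. A match is a description of the letters and not of a bound site.

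The peptide-presenting class II chains were higher in cDC2 by a log2 difference near 1. H2-Aa was at 7630, 7534, 7310, 8475, 8503 and 7086 CPM in cDC2 and at 4276, 4711, 4051, 4069, 3614 and 3218 CPM in monocytes (log2 difference 1.07, SE 0.06, adjusted p = 2.23e-13). H2-Ab1 was at 9005, 8335, 8976, 9098, 9895 and 8344 CPM against 5019, 5741, 4808, 4864, 4182 and 3961 CPM (log2 difference 1.02, SE 0.07, adjusted p = 9.41e-13). H2-Eb1 averaged 7944 ± 686 against 3666 ± 486 CPM (log2 difference 1.23). Every cDC2 value of these 3 genes lay above every monocyte value, and the lowest monocyte value of H2-Aa was 3218 CPM. Cd74, the invariant chain that guides class II through the cell, differed less (16366 ± 1045 against 9947 ± 940 CPM, log2 difference 0.83). Ciita, the coactivator itself, averaged 163 ± 27.7 CPM in cDC2 and 69.7 ± 18.5 CPM in monocytes (log2 difference 1.35, SE 0.14, adjusted p = 6.61e-09).

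The genes that load and edit the peptide cargo did not move as one group. H2-DMb2, a chain of the peptide exchange factor H2-DM, was at 318, 214, 387, 259, 325 and 322 CPM in cDC2 and at 25.9, 21.7, 20.4, 17.0, 15.5 and 19.97 CPM in monocytes (log2 difference 4.02, SE 0.13, adjusted p = 6.24e-19). Its partner H2-DMa (878 ± 58.1 against 535 ± 47.4 CPM, log2 difference 0.82) and the alternative chain H2-DMb1 (729 ± 102 against 561 ± 65.8 CPM, log2 difference 0.48) differed far less. H2-Oa, a chain of H2-DO, which restrains H2-DM, was at 228, 191, 223, 214, 283 and 311 CPM in cDC2 and at 6.02, 7.57, 5.82, 6.53, 6.62 and 4.46 CPM in monocytes (log2 difference 5.40, SE 0.16, adjusted p = 6.88e-20). H2-Ob, the other H2-DO chain, averaged 86.0 ± 17.3 against 5.63 ± 1.46 CPM (log2 difference 4.07). Macrophages held H2-DMb2 at 12.9 CPM, H2-Oa at 3.16 CPM and H2-Ob at 7.06 CPM. Ifi30, a thiol reductase that unfolds antigens, was higher (1315 ± 192 against 825 ± 91.0 CPM, log2 difference 0.77). Lower in cDC2 were the proteases Lgmn (158 ± 58.0 against 962 ± 38.4 CPM, log2 difference -2.54) and Ctss (1886 ± 271 against 3983 ± 254 CPM, log2 difference -0.98), and Marchf1, a ubiquitin ligase that removes class II from the surface (-0.74). Of the 18 class II members, 17 were tested, 11 were higher, 3 lower and 3 did not pass (median 0.82). H2-DMb1 did not pass without cDC2 cluster 36 or in the Untreated mice alone (adjusted p up to 0.472). The H2 genes are near-identical copies in places, and the sources used here do not say how the counting divided reads between them.

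**Figure D2:**
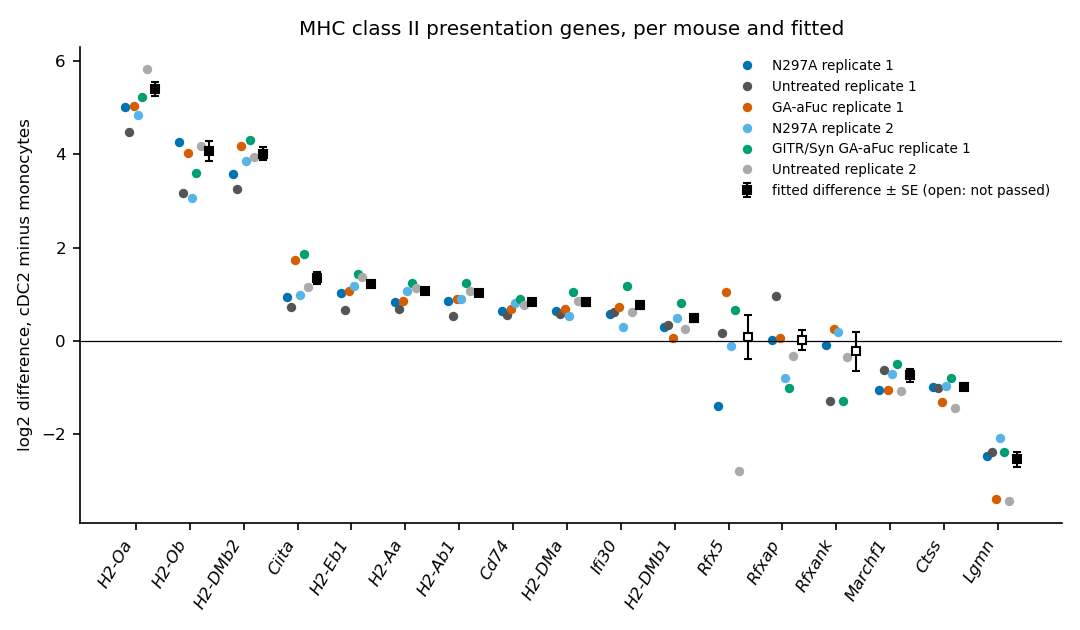
Log2 differences (cDC2 minus monocytes) of 17 class II presentation genes; coloured points are the 6 mice (log2 of CPM plus 1) and squares the fitted difference with its SE, open where the test was not passed. H2-Oa (5.40), H2-Ob (4.07) and H2-DMb2 (4.02) lie highest and Lgmn (-2.54) lowest.

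MHC class I genes differed little. Of 19 members, all tested, 4 were higher in cDC2, 2 lower and 13 did not pass (median 0.12). Psmb9 and Psmb8, subunits of the immunoproteasome that cuts peptides for class I, were higher (log2 differences 0.70 and 0.50). B2m, the light chain of class I, was lower (2990.4 ± 207 against 4323 ± 157 CPM, log2 difference -0.43), and H2-D1, a heavy chain, did not pass (-0.11, adjusted p = 0.184).

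Of 22 costimulation and coinhibition genes, 16 were tested, 9 were higher in cDC2, 3 lower and 4 did not pass (median 0.57). Cd80 and Cd86, the ligands of CD28, were higher at 265 ± 62.0 against 156 ± 19.8 CPM (log2 difference 0.86) and 1308 ± 159 against 886 ± 79.9 CPM (0.67). Tnfrsf18, which encodes GITR, the target of the antibodies, was at 33.4 ± 11.1 CPM in cDC2 and 4.86 ± 1.598 CPM in monocytes (log2 difference 2.91, SE 0.31, adjusted p = 1.74e-08). CD8 T cells held Tnfrsf18 at 251 CPM. Barcodes of free RNA, those with 10 to 100 UMIs, held it at 49.5 CPM, above the mean of cDC2 and of monocytes. The summed T cell list was 6.91 to 30.6 CPM in cDC2 and 18.5 to 42.6 CPM in monocytes. The part of free RNA or of T cells in the cDC2 level of Tnfrsf18 was not tested. Lower in cDC2 were Vsir, the checkpoint protein VISTA (33.8 ± 14.2 against 148 ± 7.77 CPM, log2 difference -2.05), Sirpa, the receptor for Cd47 (-1.27), and Lgals9 (-0.94). Sirpa is often used as a surface marker of cDC2, and here its level in monocytes was 236 ± 21.5 CPM against 93.0 ± 24.7 CPM. Cd40 (91.8 ± 27.5 against 92.0 ± 14.9 CPM) and Cd274, which encodes PD-L1 (354 ± 68.4 against 359 ± 85.7 CPM), did not pass. For Cd40 the value depended on the cDC2 clusters described below: without cluster 36 it was lower in cDC2 (log2 difference -0.71, adjusted p = 0.00493), and without cluster 46 it was higher (0.48, adjusted p = 0.0333).

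The largest differences among abundant genes were then ranked: genes that passed, did not overlap between the types and averaged at least 50 CPM in the higher type. The 12 leading genes higher in cDC2 were Plet1, Timd4, Ppp1r14a, Epcam, Cd209a, Klri1, Kit, Ffar2, Itgae, Ctnnd2, Zfp366 and Klrd1. Plet1, a membrane-anchored protein, was at 411, 334, 437, 78.2, 244 and 169 CPM in cDC2 and at 0 to 0.873 CPM in monocytes (log2 difference 9.46, SE 0.22, adjusted p = 4.95e-22). Kit, the receptor for stem cell factor, was at 143, 123, 175, 135, 160 and 178 CPM in cDC2 and at 0.522 to 3.42 CPM in monocytes (log2 difference 6.59, SE 0.24). The spread over mice was wide for Plet1 and narrow for Kit. Itgae, the integrin chain CD103 and a member of the cDC1 list above, averaged 106 ± 50.1 against 1.77 ± 0.865 CPM (log2 difference 5.98). Zfp366, a dendritic cell transcriptional regulator, averaged 66.1 ± 24.96 against 1.70 ± 2.02 CPM (5.50). A pair of lectin-like receptors better known from NK cells were among the 12, Klrd1 (361 ± 86.4 against 8.69 ± 1.43 CPM, log2 difference 5.46) and Klri1 (87.6 ± 38.8 against 0.742 ± 0.337 CPM, 6.94). CD8 T cells held Klrd1 at 999 CPM, and the other NK markers in cDC2 were at the low summed level given above. Ffar2, a receptor for short-chain fatty acids, averaged 62.5 ± 33.5 against 0.977 ± 0.942 CPM, and Ctnnd2, a delta-catenin, 235 ± 64.9 against 4.86 ± 1.40 CPM.

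Of these genes 3 had 1 to 3 UMIs over all monocytes, so their ratio of pooled CPM is given with a 95% interval for counting error. Timd4, a receptor for phosphatidylserine on dying cells, had 1 monocyte UMI and a ratio of 1349 (237.8 to 53670). Ppp1r14a, an inhibitor of myosin phosphatase, had 3 and a ratio of 558 (187 to 2732). Epcam, an epithelial adhesion protein that some dendritic cells also carry, had 3 and a ratio of 449.5 (150.4 to 2208). The 6 tumour or epithelial genes, Epcam among them, summed to 20.4 to 75.8 CPM in cDC2 and 0 to 1.22 CPM in monocytes. Epcam alone was at 72.5, 20.4, 64.4, 36.1, 75.6 and 33.3 CPM.

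The 12 leading genes lower in cDC2 were Chil3, Hp, Slpi, C5ar1, Sgms2, Clec4e, Arg1, Thbs1, Mgst1, Apoc2, F10 and Itgb5. Chil3, a chitinase-like protein of inflammatory monocytes, had 0 UMIs in cDC2 and 7166 in monocytes, which put it at least 228.5-fold lower against a floor of 3 counts over the 6 cDC2 sums. Free RNA, from barcodes with 10 to 100 UMIs, held Chil3 at 74.6 CPM. Counting ratios of monocytes to cDC2 were 194 (34.7 to 7658) for Hp, which encodes haptoglobin, and 145 (40.0 to 1194) for C5ar1, the complement C5a receptor. The protease inhibitor Slpi had 2 UMIs in cDC2. In monocytes it was at 47.4 to 81.2 CPM in 5 mice and at 561 CPM in the GITR/Syn GA-aFuc mouse, and 1 cell held 523 of its 3159 UMIs, so no pooled ratio is given. Sgms2, a sphingomyelin synthase, had 1 cDC2 UMI and Clec4e, the lectin Mincle, 2. Arg1, the arginine-degrading enzyme of suppressive myeloid cells, was at 4.95, 3.405, 9.21, 12.03, 2.80 and 5.55 CPM in cDC2 and at 357, 126, 889, 199, 552 and 237 CPM in monocytes (log2 difference -5.90, SE 0.22, adjusted p = 1.7e-17). Its monocyte level varied widely among mice without reaching the cDC2 values. Thbs1, which encodes thrombospondin, averaged 6.57 ± 7.83 against 349 ± 84.3 CPM (-5.63), Apoc2, an apolipoprotein, 4.65 ± 2.41 against 222 ± 35.0 CPM (-5.47), and Mgst1, a membrane glutathione transferase, 2.27 ± 1.26 against 104 ± 16.2 CPM (-5.51). F10, coagulation factor X, and the integrin chain Itgb5 completed the 12 (-5.19 and -5.10).

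Receptors for sugars and microbes were split. Of 22 C-type lectins 14 were tested, 4 were higher in cDC2, 8 lower and 2 did not pass (median -0.78). With Cd209a, the higher ones were Mgl2 (158 ± 98.3 against 14.1 ± 10.1 CPM, log2 difference 3.61) and Clec10a (57.4 ± 33.1 against 5.81 ± 1.84 CPM, 3.34), both galactose-binding lectins of cDC2, and Clec9a (2.67). Clec9a is a member of the cDC1 list summed above. Mgl2 and Clec10a are close copies, and reads of one may have been counted for the other. The lower ones were of the Clec4 cluster, Clec5a and Clec12a: Clec4d averaged 11.3 ± 12.9 against 140 ± 69.6 CPM (-3.27) and Clec4a2 20.2 ± 7.45 against 140 ± 26.3 CPM (-2.62). Clec7a, the beta-glucan receptor Dectin-1, did not pass, at 696 ± 139 against 708 ± 136 CPM (log2 difference 0.08, adjusted p = 0.487). Of 24 pattern recognition genes 22 were tested, 2 were higher, 13 lower and 7 did not pass (median -1.07). Cd14, which hands lipopolysaccharide to Tlr4, was at 106 ± 35.3 against 859 ± 127 CPM (log2 difference -2.93), Tlr2 at 47.2 ± 14.6 against 259 ± 14.2 CPM (-2.35) and Tlr7, a sensor of RNA, at 2.81 ± 4.48 against 49.3 ± 5.83 CPM (-3.62). Tlr3, also in the cDC1 list, and Nod2 were the 2 higher members (0.61 and 0.74). Tlr3 missed the threshold in 9 of 37 alternatives, DESeq2 and the removal of either N297A mouse or the second Untreated mouse among them.

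The Fc receptors are of interest because these mice carry the human genes through which antibodies act. Of 18 Fc receptor and proximal signalling genes 16 were tested, 2 were higher in cDC2, 10 lower and 4 did not pass (median -0.50). Human FCGR2A, an activating receptor, was at 221, 204, 94.4, 235, 92.5 and 130.5 CPM in cDC2 and at 800, 655, 1118, 818, 863 and 837 CPM in monocytes, so the groups stood far apart (log2 difference -2.29, SE 0.30, adjusted p = 0.00132). Human FCGR2B, the inhibitory receptor, was at 1398, 1181, 1245, 1411, 1818 and 1252 CPM in cDC2 and at 1053, 1054, 996, 1098, 1102 and 1164 CPM in monocytes. The 2 groups of FCGR2B values lay close but did not overlap, and the difference did not pass in the Untreated mice alone (adjusted p = 0.462). FCGR1A (43.3 ± 22.2 against 134 ± 33.6 CPM, log2 difference -1.57), FCGR3A (74.1 ± 12.6 against 194 ± 21.7 CPM, -1.25) and Fcer1g, the signalling chain that activating receptors share (1332 ± 265 against 3686 ± 247 CPM, -1.38), were lower. FCGR3B, more abundant than FCGR3A, was lower too (log2 difference -1.67 to -1.27 over the alternatives). It was at 891, 1224 and 986 CPM in cDC2 clusters 36, 46 and 64. The median over the pooled monocyte clusters was 3229 CPM. The mouse Fcgr2b was also lower (178 ± 89.7 against 743 ± 19.9 CPM, log2 difference -2.03). Fcgrt, the receptor that recycles IgG, was higher (92.8 ± 22.1 against 30.8 ± 5.34 CPM, 1.70). Free RNA held FCGR2A at 483 CPM and FCGR1A at 94.3 CPM, above their cDC2 levels, and its part in those levels was not tested. FCGR2A, FCGR2B and FCGR2C are near-identical, as are FCGR3A and FCGR3B, and reads can be divided between them.

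Migration receptors went both ways. Of 24 chemokine and chemoattractant receptor genes 15 were tested, 6 were higher in cDC2 and 9 lower (median -0.84). Higher were P2ry10, a receptor for lysophosphatidylserine (226 ± 27.2 against 16.8 ± 3.44 CPM, log2 difference 3.86, SE 0.14, adjusted p = 1.02e-17), P2ry14 (1.84), the integrin chain Itgb7 (186 ± 40.2 against 83.0 ± 8.35 CPM, 1.26) and Gpr183, an oxysterol receptor that positions dendritic cells (225 ± 31.0 against 104 ± 11.6 CPM, 1.23). Lower were Ccr2 (86.9 ± 32.6 against 429 ± 84.5 CPM, -2.21), Cx3cr1 (29.9 ± 15.4 against 213 ± 29.8 CPM, -2.68), the complement receptors C5ar1 and C3ar1 (-4.15 for C3ar1), and Ccr1, Cxcr4 and Fpr2. Ccr7, which takes dendritic cells to lymph nodes, was too sparse to be tested, at 35.4 ± 32.0 CPM in cDC2 and 1.17 ± 0.697 CPM in monocytes.

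Secreted signals were mostly at lower levels in cDC2. Of 20 chemokines 17 were tested, 2 were higher, 11 lower and 4 did not pass (median -1.44). Ccl22, a ligand of Ccr4 on T cells, was at 14.8, 23.8, 113, 9.03, 70.0 and 8.33 CPM in cDC2 and at 0.223 to 1.75 CPM in monocytes (log2 difference 5.32, SE 0.39, adjusted p = 1.13e-11). Ccl17, the other Ccr4 ligand, was at 124, 68.1, 276, 0, 216 and 5.55 CPM in cDC2 and at 0.261 to 10.1 CPM in monocytes (log2 difference 5.29, SE 0.43, adjusted p = 2.05e-06), so the Ccl17 groups overlapped. Both were highest in the 2 mice given Fc-enhanced antibodies, and 1 cDC2 held 56 of the 294 Ccl17 UMIs. Neither gene passed the test of type by treatment terms described below. With 1 mouse in each of these groups, treatment and mouse cannot be told apart. The monocyte attractants Ccl2 (41.9 ± 19.9 against 487 ± 134 CPM, log2 difference -3.43), Ccl7 (-3.73) and Ccl12 (-3.87) were lower, and free RNA held all 3 at 388 to 643 CPM, above the mean of either type. Cxcl9 and Cxcl10, which attract T cells, did not pass (929 ± 443 against 1134 ± 264 CPM for Cxcl9, log2 difference -0.25, adjusted p = 0.567). By the cDC2 clusters described below, Cxcl9 was at 1660 CPM in cluster 36, 524 CPM in cluster 46 and 153 CPM in cluster 64. Pooled monocyte clusters held it at 43.0 to 2378 CPM. Without cDC2 cluster 36 Cxcl9 passed as lower in cDC2. It also did so in the Untreated mice alone and with cells thinned to 1000 UMIs. Of 22 cytokine genes 18 were tested, 1 was higher, 13 lower and 4 did not pass (median -1.11). The 1 higher gene was Il1r2, the decoy receptor that captures interleukin 1, at 1286, 970, 1066, 942, 1048 and 1172 CPM in cDC2 and at 293, 291, 295, 179, 216 and 228 CPM in monocytes (log2 difference 2.23, SE 0.09, adjusted p = 5.54e-17). Il1rn, the interleukin 1 receptor antagonist, was lower (38.7 ± 24.6 against 324 ± 30.1 CPM, log2 difference -3.04), as was Il1a (-3.26). Il1b itself was high in both types (1923 ± 474 against 2376 ± 133 CPM, log2 difference -0.23, adjusted p = 0.0493), and it missed the threshold in 18 of 39 alternatives. Tgfbi, a matrix protein induced by TGF-beta, fell by 2.80 on the log2 scale.

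**Figure D3:**
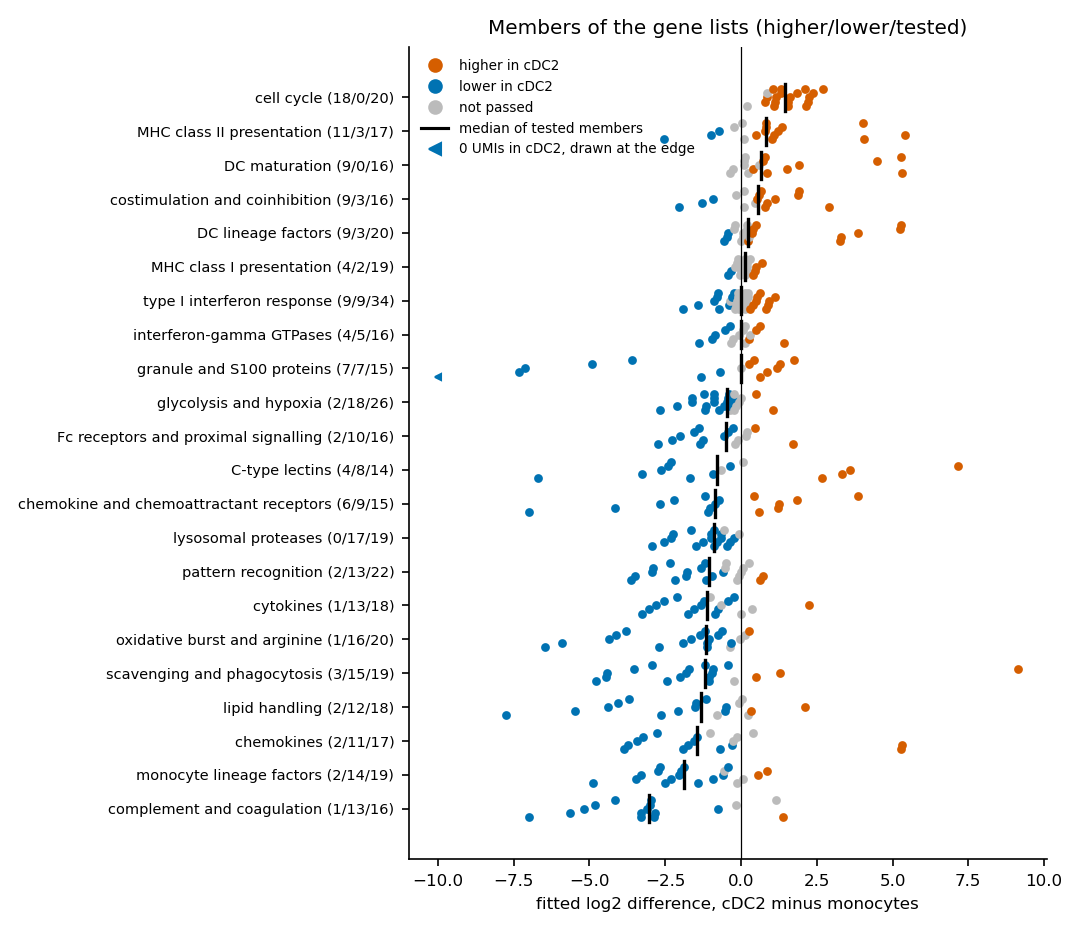
Fitted log2 differences (cDC2 minus monocytes) of the tested members of each list, 1 point per gene coloured by its call, with a bar at the list's median and the counts higher, lower and tested beside its name; genes with 0 UMIs in cDC2 are drawn at the left edge. Cell cycle, class II and maturation lists lie above the all-gene median of 0.0017, and complement, monocyte lineage and lipid lists below it.

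Genes of uptake and degradation were lower in cDC2 almost throughout. Of 22 scavenging and phagocytosis genes 19 were tested, 15 were lower, 3 higher (Timd4, Cd300a and Clec2d) and 1 did not pass (median -1.18). Mertk, a receptor for apoptotic cells, averaged 1.59 ± 1.299 against 49.3 ± 19.5 CPM (log2 difference -4.77), Msr1, a scavenger receptor, 10.2 ± 7.18 against 265 ± 37.1 CPM (-4.45) and Trem2, a lipid receptor of tumour macrophages, 7.82 ± 4.77 against 177 ± 12.7 CPM (-4.43). Of 20 complement and coagulation genes 16 were tested, 13 were lower, 1 higher and 2 did not pass, giving the lowest median of the 22 lists (-3.05). C1qa, a chain of C1q, was at 218, 293, 127, 614, 165 and 142 CPM in cDC2 and at 1859, 1957, 2092, 2396, 1752 and 1950 CPM in monocytes (log2 difference -2.99, SE 0.30, adjusted p = 0.000575). The highest cDC2 value was in the second N297A mouse, and macrophages held C1qa at 5542 CPM. Cfp, which encodes properdin, was the higher one (251 ± 65.6 against 103 ± 16.2 CPM, log2 difference 1.39). Of 20 lysosomal genes 19 were tested, 17 were lower, 0 higher and 2 did not pass (median -0.91). Ctsl averaged 32.0 ± 11.4 against 274 ± 54.5 CPM (-2.94), Ctsb 184 ± 43.1 against 929 ± 104 CPM (-2.24) and Lamp1 162 ± 37.9 against 545 ± 29.8 CPM (-1.67). The 10 macrophage markers moved with these lists, at the summed levels given above, and the part of macrophage-like cells among the monocytes was not tested beyond the removal of each monocyte cluster.

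Of 21 genes of the oxidative burst, arginine use and oxidative defence 20 were tested, 16 were lower in cDC2, 1 was higher and 3 did not pass (median -1.16). Nos2, the inducible nitric oxide synthase, averaged 4.02 ± 7.03 against 72.7 ± 48.2 CPM (log2 difference -4.13), Arg2 2.07 ± 3.67 against 38.0 ± 12.1 CPM (-4.35) and Cybb, the catalytic chain of the phagocyte oxidase, 296 ± 34.8 against 815 ± 45.4 CPM (-1.36). Hmox1, the haem-degrading enzyme, was at 9.36 ± 5.56 against 149 ± 215 CPM (-3.79), and did not pass without pairing by mouse (adjusted p = 0.0657). The higher gene was Rac2 (log2 difference 0.27), which missed the threshold in 18 of 39 alternatives. Granule and S100 genes went both ways: of 24 members 15 were tested, 7 were higher, 7 lower and 1 did not pass. S100a11 (1849 ± 50.2 against 828 ± 81.7 CPM, log2 difference 1.27), S100a4 (1.19), S100a6 (0.85) and Ifitm6 (1.75) were higher, while Lyz2, the monocyte lysozyme, was lower (414 ± 208 against 5014 ± 626 CPM, -3.61). Vcan, a matrix proteoglycan used as a monocyte marker, had 3 cDC2 UMIs and a ratio of 33.1 (11.3 to 161) in favour of monocytes. Plac8, another gene of inflammatory monocytes, did not differ by the test (2394 ± 195 against 2588 ± 259 CPM, log2 difference -0.00, adjusted p = 0.977). Macrophages held Plac8 at 131 CPM and S100a11 at 182 CPM.

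Interferon-induced genes showed no shared direction. Of 34 type I interferon genes, all tested, 9 were higher in cDC2, 9 lower and 16 did not pass (median 0.006). Ifi205 (536 ± 83.1 against 265 ± 26.0 CPM, log2 difference 1.12) and Isg20 (263 ± 23.6 against 154 ± 36.02 CPM, 0.91) were higher, and Rsad2, which encodes viperin (221 ± 109 against 616 ± 157 CPM, -1.42), and Oas3 (-0.90) lower. Isg15, a ubiquitin-like protein and one of the most abundant members, did not pass (1349.7 ± 223 against 1324 ± 130 CPM, 0.13). Among 16 interferon-gamma GTPases and related genes, all tested, 4 were higher, 5 lower and 7 did not pass (median 0.001). Iigp1 was at 648 ± 136 against 446 ± 95.05 CPM (0.64) and Gbp3 at 84.2 ± 23.8 against 174 ± 19.9 CPM (-0.95). Against macrophages the same lists gave 22 higher and 2 lower of 34 (median 0.49), and 12 higher and 1 lower of 16 (median 0.74). Without cDC2 cluster 36 the type I list gave 5 higher and 17 lower (median -0.24), and without cluster 46 it gave 11 higher and 5 lower (median 0.12). The Gbp, Ifi and Tgtp genes are families of close copies.

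Metabolic genes were lower on balance. Of 27 glycolysis and hypoxia genes 26 were tested, 18 were lower in cDC2, 2 higher and 6 did not pass (median -0.45). Gapdh was at 1082 ± 124 against 1533 ± 118 CPM (log2 difference -0.40), Pkm, pyruvate kinase, at 436 ± 47.0 against 871 ± 81.6 CPM (-0.89), and Bnip3, a hypoxia-induced mitochondrial protein, at 31.9 ± 11.5 against 104 ± 26.4 CPM (-1.62). Pfkp, a phosphofructokinase, was higher (304 ± 42.0 against 157 ± 16.3 CPM, 1.06). Of 21 lipid genes 18 were tested, 12 were lower, 2 higher and 4 did not pass (median -1.33). Apoe, the apolipoprotein of tumour macrophages, was at 346, 340, 265, 668, 235 and 172 CPM in cDC2 and at 6480, 5644, 6141, 6504, 4799 and 4457 CPM in monocytes (log2 difference -4.05, SE 0.19, adjusted p = 1.78e-06). Free RNA held Apoe at 9871 CPM, and CD8 T cells, which should lack the gene, at 402 CPM, within the cDC2 range. Abca1, a cholesterol exporter, averaged 8.64 ± 9.74 against 170 ± 29.7 CPM (-4.40) and Plin2, a lipid droplet protein, 68.0 ± 18.8 against 310.1 ± 44.6 CPM (-2.08). Alox5ap and Ltc4s, which serve leukotriene synthesis, were the 2 higher genes (0.34 and 2.10).

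Cell cycle genes were higher in cDC2, and their levels were highest in 1 small cluster. Of 24 members 20 were tested, 18 were higher, 0 lower and 2 did not pass (median 1.44). Top2a, a topoisomerase of dividing cells, was at 90.7, 119, 150, 102, 11.2 and 144 CPM in cDC2 and at 11.5 to 21.0 CPM in monocytes (log2 difference 2.69, SE 0.33, adjusted p = 0.000109). Mki67 averaged 43.8 ± 26.7 against 10.4 ± 3.52 CPM (2.23). The low cDC2 value came from the mouse given GITR/Syn GA-aFuc, with 0 cells in the deposited cluster 64. That cluster held 12 of the 200 cDC2, with a median of 22806 UMIs per cell, and Top2a at 840 CPM against 11.2 CPM in cluster 36 and 13.2 CPM in cluster 46. Without it 18 genes were tested and 4 were higher (median 0.27), and Top2a and Mki67 no longer passed (log2 differences -0.37 and -0.48). H2az1, a histone variant, was higher in all 6 mice (1262 ± 140 against 545 ± 50.9 CPM, 1.32). Against macrophages 2 of 24 cell cycle genes were higher in cDC2 and 20 lower (median -0.89).

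Of 22 dendritic cell maturation genes 16 were tested, 9 were higher in cDC2, 0 lower and 7 did not pass (median 0.66). Several also belong to the costimulation and chemokine lists (Cd80, Cd83, Pdcd1lg2, Ccl17 and Ccl22). Tbc1d4, a regulator of vesicle traffic, averaged 114 ± 41.9 against 5.64 ± 3.66 CPM (log2 difference 4.49), and Traf1, a signalling adaptor of the TNF receptor family, 113 ± 30.9 against 42.6 ± 4.77 CPM (1.504). In pooled mregDC, the mature dendritic cells of tumours, Tbc1d4 was at 1470.4 CPM and Ccl22 at 925 CPM. The 8 mregDC markers summed to 44.4 to 253 CPM in cDC2 and 10.7 to 24.7 CPM in monocytes, with 7 of 8 seen in both. Without cDC2 cluster 36 the maturation list had 7 higher and 2 lower of 15.

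**Figure D4:**
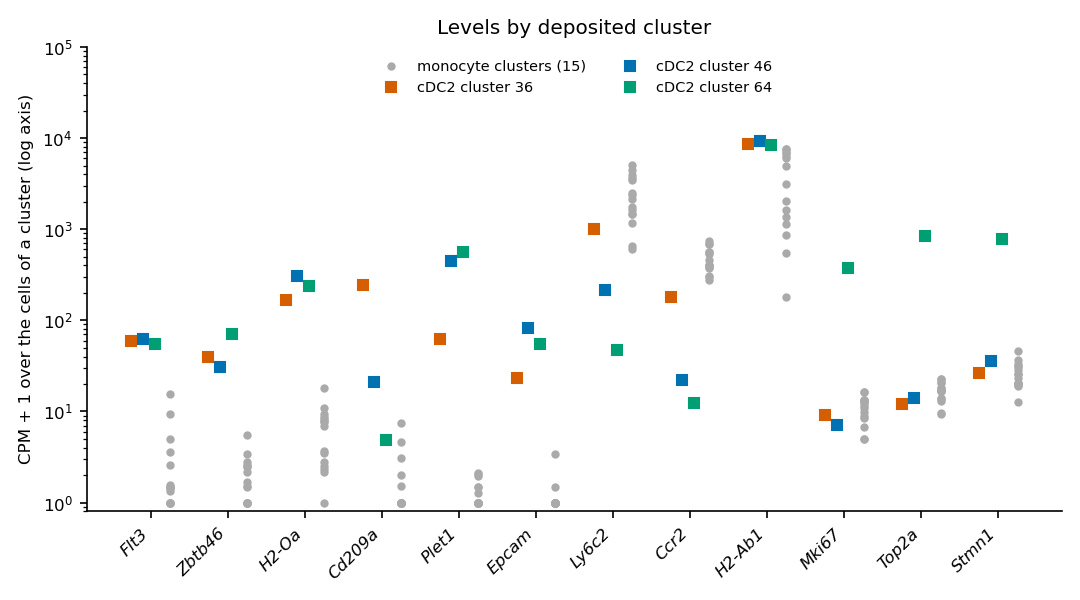
Levels of 12 genes as CPM plus 1 on a log axis in the 3 deposited cDC2 clusters (squares) and the 15 monocyte clusters (grey points), with all cells of a cluster pooled. Among cDC2, Cd209a, Ly6c2 and Ccr2 are highest in cluster 36, Plet1 and Epcam higher in clusters 46 and 64, and Top2a and Mki67 highest in cluster 64.

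The cDC2 were not of 1 kind. Cluster 36 held 101 cells (50.5%, median 9365 UMIs) and cluster 46 held 87 (43.5%, median 12660 UMIs). Because clusters were formed by the authors from expression, their levels are given as descriptions. Cd209a was at 246 CPM in cluster 36 and 20.2 CPM in cluster 46, with 3.84 CPM in cluster 64. Plet1 was at 62.0 and 441 CPM, Itgae at 27.4 and 171 CPM, Kit at 90.4 and 187 CPM and Ppp1r14a at 7.11 and 104 CPM. The monocyte genes Ly6c2 (1006 and 215 CPM) and Ccr2 (179 and 21.1 CPM) were higher in cluster 36, and Csf1r (128 and 55.3 CPM) likewise. Mgl2 and Clec10a had opposite orders, with Mgl2 at 142 and 233 CPM and Clec10a at 89.4 and 45.6 CPM. Flt3 (57.9 and 61.4 CPM), Zbtb46 (38.6 and 29.8 CPM) and H2-Ab1 (8721 and 9313 CPM) were close in the 2 clusters. Ccr7 and Ccl22 were at 86.4 and 87.4 CPM in cluster 36 and at 6.14 and 8.78 CPM in cluster 46.

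By mouse, Plet1 ranged from 0 to 187 CPM in cluster 36 and from 133 to 677 CPM in cluster 46. Cd209a ranged from 37.4 to 575 CPM in cluster 36 and from 0 to 94.95 CPM in cluster 46, and was higher in cluster 36 in each of the 6 mice. Ly6c2 was 172 to 1473 CPM in cluster 36 and 93.5 to 578 CPM in cluster 46. The second Untreated mouse, lowest in Ly6c2 over all cDC2, had 9 cells of cluster 36 and 16 of cluster 46. It was also the lowest within cluster 36, at 172 CPM of Ly6c2 against 898 to 1473 CPM in the other mice. In cluster 46 it was at 126 CPM, and the lowest value there was in the GA-aFuc mouse. The part of the cluster shares in its low Ly6c2 was not tested. Without cluster 46, and so with cluster 36 as most of the cDC2, 962 genes were higher and 1272 lower than in monocytes, and Ly6c2 did not pass. Monocytes were divided by the authors into 15 clusters, in which pooled H2-Ab1 ran from 181 CPM (cluster 54) to 7585 CPM (cluster 18). Ly6c2 ran from 600.3 CPM (cluster 22) to 5055 CPM (cluster 49) and C1qa from 118 CPM (cluster 54) to 3800 CPM (cluster 22). The monocyte H2-Ab1 level given above is a mean over these clusters.

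The 5 genes whose 12 values were most like those of Cd209a were Rbm3 (Pearson r 0.982 of log2 CPM), Cep43 (0.979), Ifitm2 (0.976), Sub1 (0.972) and Srsf3 (0.971). These points share the division into 2 types, which enters each value. The likeness does not extend to other cell types: CD8 T cells held Rbm3 at 867 CPM, Sub1 at 1138 CPM and Srsf3 at 421 CPM. The cDC2 means of these genes were 673, 763 and 362 CPM. Cep43 and Ifitm2 were lower in CD8 T cells (16.2 and 433 CPM) than in cDC2 (63.5 and 1741 CPM). Rbm3, an RNA-binding protein induced by cold, was at 671, 739, 605, 677, 630 and 714 CPM in cDC2 and at 397 to 487 CPM in monocytes. Its highest and lowest cDC2 values fell in the same mice as those of Cd209a, the first Untreated and the GA-aFuc mouse. Rbm3 was picked for its likeness to Cd209a over these same 12 values, so that match is not a separate result.

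**Figure D5:**
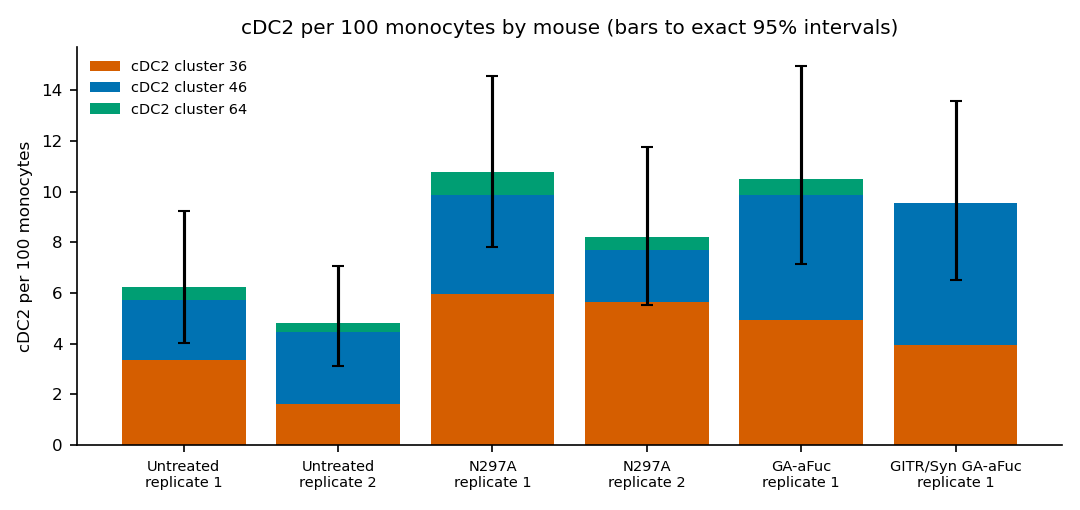
Number of cDC2 per 100 monocytes in each mouse, stacked by deposited cDC2 cluster, with exact 95% intervals for the total that cover counting error only. The 2 Untreated mice sit at 6.22 and 4.80, below the other 4 mice.

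There were 10.8, 6.22, 10.5, 8.21, 9.55 and 4.80 cDC2 per 100 monocytes. N297A mice averaged 9.49 ± 1.82 and Untreated mice 5.51 ± 1.00 (exact permutation test, two-sided, p = 0.333, the smallest that 2 against 2 can give). The counting intervals of the N297A mice were 7.80 to 14.6 and 5.53 to 11.8, and those of the Untreated mice 4.02 to 9.25 and 3.14 to 7.07. The first N297A interval lay above that of the second Untreated mouse, and the other pairs of intervals overlapped. Without cluster 36 the means were 3.69 and 3.04 (p = 1 by the same exact test), and without cluster 46 they were 6.52 and 2.89. A lower ratio can come from fewer cDC2 or from more monocytes, and these numbers cannot tell the 2 apart.

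Whether the cDC2 to monocyte difference itself changed with treatment was tested with terms for type by treatment. At an adjusted p under 0.05, 6 of 9185 genes passed by edgeR (0.0653%) and 0 by DESeq2, against 366 (3.98%) at an unadjusted p under 0.05 by edgeR. With cells thinned to 1000 UMIs 0 genes passed. With 1 mouse left out the number was 1 without the first N297A mouse, 2 without the second, 121 without the first Untreated mouse and 83 without the second. For N297A against Untreated alone 0 passed by edgeR and 0 by DESeq2, with 349 (3.80%) at an unadjusted p under 0.05. Cxcl9, the T cell attractant, was at 1228, 500, 569, 1586, 1104 and 586 CPM in cDC2 and at 1096, 1383, 1097, 1502, 830.0 and 895 CPM in monocytes (adjusted p = 0.00795). Its cDC2 level was lowest in the Untreated and GA-aFuc mice, and 1 cDC2 held 150 of the 2271 UMIs. Cluster 36, the cDC2 cluster with the most Cxcl9 (1660 CPM), held 26, 14, 16, 22, 14 and 9 cells in these mice. The part of this cluster in the Cxcl9 term was not tested. Mmp12, a macrophage elastase, was at 150.03, 30.6, 62.1, 24.1, 33.6 and 49.98 CPM in cDC2 and at 81.4, 20.8, 118, 17.2, 133 and 15.2 CPM in monocytes (adjusted p = 0.00795), with 48 of 165 UMIs in 1 cDC2. H1f5, a linker histone of dividing cells (adjusted p = 0.00795), was at 11.2 CPM in cDC2 of the mouse given GITR/Syn GA-aFuc, which lacked cluster 64, and at 140 to 226 CPM in the others. Ccl3, an inflammatory chemokine (adjusted p = 0.0159), was at 110 CPM in cDC2 of the GA-aFuc mouse and at 11.1 to 45.1 CPM in the others. Myo1e, a membrane-linked myosin (adjusted p = 0.0159), was at 39.1 CPM in cDC2 of the GA-aFuc mouse and at 78.4 to 157 CPM in the others, and Lrmda (adjusted p = 0.0473) completed the 6. H1f5, Ccl3 and Myo1e had their extreme cDC2 value in a group of 1 mouse. Lrmda had its lowest cDC2 value in such a group too (170 CPM in the GA-aFuc mouse). Mmp12 was lower in cDC2 than in monocytes only in the GA-aFuc mouse (62.1 against 118 CPM) and the GITR/Syn GA-aFuc mouse (33.6 against 133 CPM).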

How the data were processed

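The authors deposited raw UMI counts of 1 10x Genomics 3' library with mouse and human genes and hashtags (Cell Ranger 9.0.0, per the file headers; GRCh38 and GRCm39, per the submitters' processing notes) and a table of treatment, cell type and cluster per barcode. Of 19210 entries 18336 had a barcode among the deposited counts of this library, and 8767 had at least 1000 mouse UMIs. Of these 8767, 33 were dropped for a top hashtag that did not match the listed treatment and 18 because their barcode occurred more than once. Each top hashtag was taken as 1 mouse, which pairs the 2 types; mice share a library, so p-values measure spread between these 6 samples. No doublet caller was run. Counts were summed per mouse and type and fitted with edgeR 4.0.16 (R 4.3.3; TMM, filterByExpr, robust quasi-likelihood, mouse and type as terms, Benjamini-Hochberg over all genes); macrophages and treatment terms were fitted likewise. DESeq2 1.42.0 and limma 3.58.1 were alternatives, beside other filters, scalings, cells, clusters and each mouse left out. Named genes were the 3 markers, the 12 largest differences each way at 50 CPM or more, per list the 3 largest each way at 20 CPM or more and the most abundant that did not pass, and the 5 smallest treatment p-values; others printed were chosen after their values were seen. Members, lists and tests were chosen with earlier results of these data known. Scripts were tested on simulated data. Intervals and floors cover counting error only. Some members counted in the lists are not reported here by name.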

Additional observations from a re-analysis of the deposited data

Results flagged for a closer look

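In each gene named in the report and its lists, 211 in all, the 6 differences per mouse (log2 of CPM plus 1, cDC2 minus monocytes) were searched for a mouse set apart from the others, and 16 genes (7.58%) held one. Chance alone flags about 1 gene in 20.

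In the GITR/Syn GA-aFuc mouse, which had no cell of cDC2 cluster 64, 6 genes of dividing cells were far below the other mice: Top2a at -0.536 (median of the others 2.78), Birc5 at 0.525 (2.34), Mki67 at -3.39 (2.43), H1f5 at -0.163 (4.02), Stmn1 at -0.903 (2.29) and Tubb5 at -0.253 (0.806). In the same mouse Klrd1 stood at 5.68 (5.07) and Apoc2 at -7.89 (-4.95). In the second Untreated mouse the monocyte genes Ly6c2 at -4.53 (-1.82) and Ccr2 at -3.66 (-2.11) and the integrin Itgb5 at -7.12 (-4.96) were lower than elsewhere. In the first Untreated mouse Ffar2 stood at 2.29 (5.5), Hp at -4.72 (-6.32) and Bnip3 at -0.581 (-1.91). Msr1 was at -3.46 in the first N297A mouse (-4.93) and Ebi3 at -0.258 in the second (0.333).

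By edgeR's test of the type by treatment terms the difference between the types varied for Mmp12, H1f5 and Cxcl9 (adjusted p = 0.00795 each), Myo1e and Ccl3 (0.0159 each) and Lrmda (0.0473). DESeq2 called 0 genes and edgeR on cells thinned to 1000 UMIs called 0, and groups of 1 mouse enter each of these tests.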

How the results depend on the processing

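Of the 1617 genes higher and 1568 lower, the counts stayed within 1.5 times under most alternatives; no replicate block gave 1750 and 1646 (the 2 types of a mouse are paired because they come from the same animal), DESeq2 1337 and 1391, and leaving out 1 mouse 1363 to 1535 and 1363 to 1623. Larger moves came with less data: 350 and 434 with cells thinned to 1000 UMIs, 840 and 851 with monocytes drawn down to the number of cDC2, 693 and 718 in the Untreated mice alone, and 962 higher without cDC2 cluster 46. With no filter on low counts 38.6% of called genes were higher, against 50.8%, and limma gave 56.8%. Genes whose difference varied with treatment, 6 in the fit reported, numbered 0 with DESeq2, 38 with no filter, 0 with thinned cells and 1 to 121 with 1 mouse left out; for N297A, 0 as reported, they numbered 2 with no filter, 2 without the top cell of each gene and 0 to 33 with 1 mouse left out (33 without the first Untreated mouse). The ratio of cDC2 per 100 monocytes, 8.34 over all mice, was 4.10 without cDC2 cluster 36 and 4.72 without cluster 46. Single genes changed sign without cDC2 cluster 36 (Isg15 -0.25, Ifi47 -0.42, Cd40 -0.71), without cluster 64 (Top2a -0.37, Mki67 -0.48, H1f5 -0.51, Tubb5 -0.096) and without monocyte cluster 8 (Plac8 0.17); the cause was not tested. Without the block, 207 of 211 named genes kept their call and direction. Ndrg1, Il1b and Hmox1 no longer passed and Spi1 did. More named genes moved elsewhere. In the Untreated mice alone 39 of 211 no longer passed, among them Irf8, Klf4, Marchf1, Psmb8, Oas3 and Gapdh. With cells thinned to 1000 UMIs 26 of 151 no longer passed, Marchf1, Oas3 and Isg20 among them. Removal of cDC2 cluster 46 had that result for 13 of 207, Ly6c2 and Irf8 among them. Depth limits genes with few cDC2 UMIs most, since 26 to 47 cells stand behind each cDC2 sum.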
